A study of Mus musculus with 12 samples.

Results

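The Dlk1-Meg3-Dio3 domain of mouse chromosome 12 was described through every non-control probe of a CpG island array whose annotated position (mm9) lay in chr12:110680000-111530000, which gave 52 of 88737 probes. The domain was chosen because a contrast of these same arrays was known, the rise of one line at the intergenic control region, so every value that involves CC9mus is given as a description with no test. The study compared 4 mouse embryonic stem cell lines, all made from CC9.3.1 cells of a 129SvEv-Gpi1c(129S6) embryo that had been depleted of their own mitochondrial DNA and then fused with cytoplasts. The lines share that nuclear genome and differ in mitochondrial haplotype, which was Mus musculus in CC9mus, Mus spretus in CC9spretus, Mus terricolor in CC9dunni and Mus pahari in CC9pahari. Each line was reconstructed by the same fusion procedure, so CC9mus carries the manipulation but not a foreign mitochondrial genome, and all differences between lines are differences between single reconstructed lines. Methylated DNA was immunoprecipitated from undifferentiated cells kept for 48 h without feeder cells, and 3 biological replicates of each line were hybridised, 1 array each, with the immunoprecipitate (IP) in Cy5 and 400 ng of input DNA in Cy3.

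The domain is a textbook imprinted cluster, in which a gene is expressed from the maternal or the paternal chromosome only. Its intergenic differentially methylated region is normally methylated on the paternal chromosome and unmethylated on the maternal one, and this mark is set in the germline and kept through early development by the zinc finger protein ZFP57. The unmethylated maternal copy permits expression of the long noncoding RNAs Meg3, Rian and Mirg, which host many microRNAs and small nucleolar RNAs, while the paternal chromosome expresses the protein-coding genes Dlk1, Rtl1 and Dio3. In mouse stem cells the Meg3 side of the cluster is known for gaining methylation in culture. Methylated DNA immunoprecipitation reads both chromosomes together, so the 2 parental alleles cannot be told apart here.

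The values below are log2 ratios of IP over input signal, with the median of all probes of the array set to 0. A ratio of 2, a 4-fold enrichment over that median, is used here as a threshold for levels. The size is that of the study's cutoff, which was set on ratios between samples and joined to a Z-score filter that was not applied here. The 52 probes fell into 5 loci, each a run of neighbouring probes no more than 1000 bp apart. By position, 8 probes at chr12:110691154-110692158 and 4 probes at chr12:110697905-110698305 belonged to Dlk1, 4 probes at chr12:110766379-110766726 to the intergenic control region, and 15 probes at chr12:111515954-111518227 to Dio3. A further 21 probes at chr12:111425598-111427982, 88.0 kb before the first Dio3 probe, are called the locus before Dio3, since the array tables used here pair no probe with a gene and no mm9 annotation was used. There were 0 probes in the window given for the Meg3 promoter, chr12:110775000-110785000, and 0 probes in the 658.9 kb between the control region and the locus before Dio3. Of the 6 genes, Dlk1 and Dio3 therefore had probes at their positions, and no value can be given for the promoters of Meg3, Rtl1, Rian and Mirg.

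RefSeq promoter sequences were matched by symbol for 5 of the 6 genes, and those of Dlk1 and Dio3 are shown because the measured islands lie at these genes and their CpG content differs. Both are the 250 bases before the transcription start on the plus strand of GRCm38.p6, chr12:109452573-109452822 for Dlk1 and chr12:110278980-110279229 for Dio3, with every CpG dinucleotide, the unit the antibody target sits in, in capitals. The probes are placed on mm9 and these sequences on GRCm38.p6, so no probe was laid on them.
Dlk1: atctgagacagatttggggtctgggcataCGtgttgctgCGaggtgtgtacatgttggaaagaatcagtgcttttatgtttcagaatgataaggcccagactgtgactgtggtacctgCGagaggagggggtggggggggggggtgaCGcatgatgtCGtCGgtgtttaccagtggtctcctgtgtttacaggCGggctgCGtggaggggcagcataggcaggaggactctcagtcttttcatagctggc
Dio3: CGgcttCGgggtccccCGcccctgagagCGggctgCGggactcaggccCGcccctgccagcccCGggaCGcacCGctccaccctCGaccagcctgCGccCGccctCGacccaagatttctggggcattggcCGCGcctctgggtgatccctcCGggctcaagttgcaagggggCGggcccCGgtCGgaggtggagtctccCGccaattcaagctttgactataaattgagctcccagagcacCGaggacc
The Dlk1 promoter held 8 CpG and was 54.8% G or C, and the Dio3 promoter held 21 CpG and was 69.6% G or C. Over 32851 RefSeq promoters of the same length the median was 6 CpG, and 57.0% had fewer than Dlk1 and 83.7% fewer than Dio3. The letters TGCCGC, the core of the ZFP57 motif, were searched on both strands and were found in 0 of these 2 sequences, once in the first of 2 Meg3 promoters, and in 8.68% of all promoters. The Mirg promoter held 10 CpG, the first Meg3 promoter 10, and the second Meg3 promoter and the Rian promoter 0. Rtl1 was not listed.

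The arrays differed in ways that touch each result. The standard deviation of the log2 ratio over all probes was 0.53 on CC9mus replicate 1 but 1.85 and 2.01 on CC9mus replicates 2 and 3, against 1.09 to 1.38 on the other 9 arrays. The 3 CC9mus arrays were scanned on a day of their own in the later of 2 scan periods, which also held replicate 3 of each other line, while replicates 1 and 2 of those lines were scanned earlier. Replicates 1 and 2 lay on the same slide in CC9mus, in CC9dunni and in CC9pahari, so a slide effect is shared by those arrays. Among the domain probes, each array had at least 43 of 52 IP signals and 47 of 52 input signals that the scanner software called well above background, 0 spots were saturated and 1 spot was missing, that of the Dio3 probe A_68_P28737550 on CC9mus replicate 1.

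At the intergenic control region, the element that governs the whole cluster, IP enrichment ran from the top of the array in CC9mus to near the array median in CC9pahari. Averaged over its 4 probes, the log2 ratio was 3.45, 6.99 and 7.68 on CC9mus replicates 1, 2 and 3. It was 2.50, 4.02 and 2.31 on the CC9spretus replicates, 1.52, 1.44 and -0.57 on the CC9dunni replicates, and 0.20, 0.09 and 0.59 on the CC9pahari replicates. CC9spretus replicate 2 lay above CC9mus replicate 1, the CC9spretus arrays all lay above the CC9dunni and CC9pahari arrays, and CC9dunni and CC9pahari overlapped because CC9dunni replicate 3 lay below every CC9pahari array. The line means were 6.04 ± 2.27 in CC9mus, 2.94 ± 0.94 in CC9spretus, 0.80 ± 1.18 in CC9dunni and 0.29 ± 0.26 in CC9pahari (SD, n = 3 each). In that order CC9spretus and CC9dunni were the neighbouring lines whose arrays did not overlap.

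**Figure D1:**
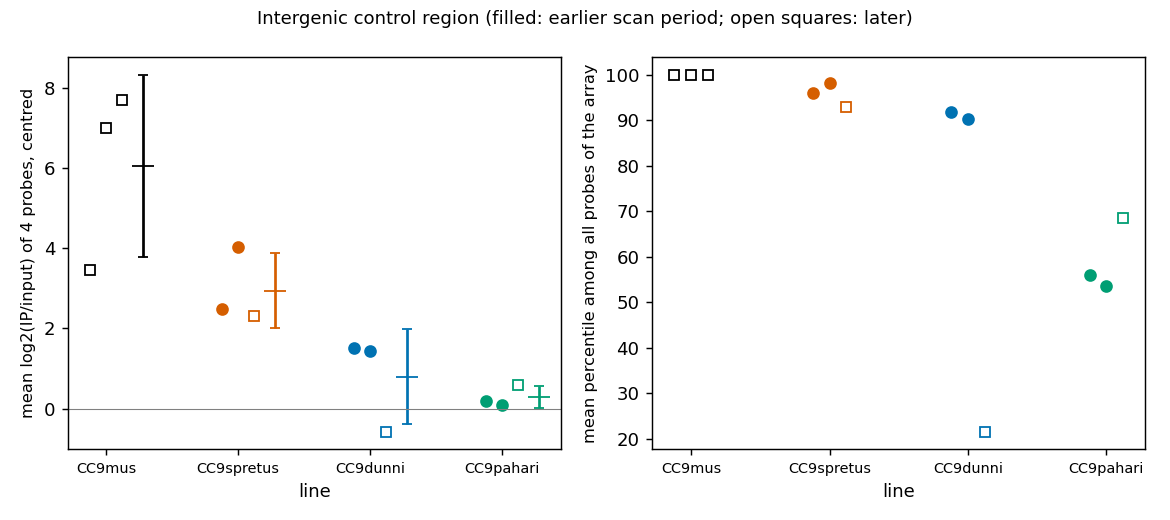
Mean log2(IP/input) of the 4 intergenic control region probes on each array (left, with the line mean ± SD of 3 arrays) and the mean percentile of these ratios among all probes of the same array (right), by line. Filled circles were scanned in the earlier period and open squares in the later one, and the 3 CC9mus arrays, with ratios from 3.45 to 7.68, sit at the ceiling of the percentile scale, at 99.9.

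As a percentile among all probes of the same array, a measure chosen after the data were seen, the control region probes averaged 99.9 on all 3 CC9mus arrays. That is the ceiling of the scale, so it does not show how far the CC9mus replicates agree. They averaged 92.9 to 98.3 on the CC9spretus arrays and 53.5 to 68.5 on the CC9pahari arrays. In CC9dunni they averaged 91.7 and 90.2 on replicates 1 and 2 but 21.6 on replicate 3, so replicate 3 stood apart from the other CC9dunni arrays on this scale too.

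The 4 probes of the control region kept the same order of line means, although not the same order of single arrays. The first, A_68_P28733168 (chr12:110766379-110766427), had the largest CC9mus difference of the 52, at 5.09. Its ratios were 3.89, 7.73 and 7.34 in CC9mus, 2.45, 3.43 and 2.78 in CC9spretus, 1.32, 0.84 and -0.37 in CC9dunni, and -0.31, -0.01 and 0.94 in CC9pahari, so that all CC9mus arrays lay above the other 9. The probe with the highest mean over the 12 arrays was A_68_P28733169 (chr12:110766482-110766526), with line means of 6.34 ± 2.36, 2.93 ± 0.67, 1.16 ± 1.00 and 0.59 ± 0.44 in CC9mus, CC9spretus, CC9dunni and CC9pahari. The probe with the lowest mean was A_68_P28733171 (chr12:110766677-110766726), with 5.98 ± 2.50, 3.12 ± 1.71, 0.68 ± 1.74 and -0.18 ± 0.26 (SD, n = 3). These 3 probes therefore gave the same order of line means.

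Both channels entered the ratio, and both differed between lines at the control region. Relative to the median probe of its array, the log2 IP signal of the 4 probes averaged 3.18 ± 2.32 in CC9mus, 0.83 ± 1.11 in CC9spretus, -1.24 ± 1.19 in CC9dunni and -1.77 ± 0.36 in CC9pahari. The log2 input signal averaged -2.83 ± 0.05 in CC9mus and -2.01 ± 0.13 over the 9 other arrays, and each CC9mus array lay below each other array. The input was dim here, with a median of 39.0 to 123.0 scanner units over local background against 82.0 to 383.0 for the median probe of the arrays, so small changes in it move the ratio. The IP signal was well above background at all 4 probes on every CC9mus and CC9spretus array, at 3 or 4 on the CC9dunni arrays and at 2 to 4 on the CC9pahari arrays. The part of the lower input signal in the higher CC9mus ratio was not tested.

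**Figure D2:**
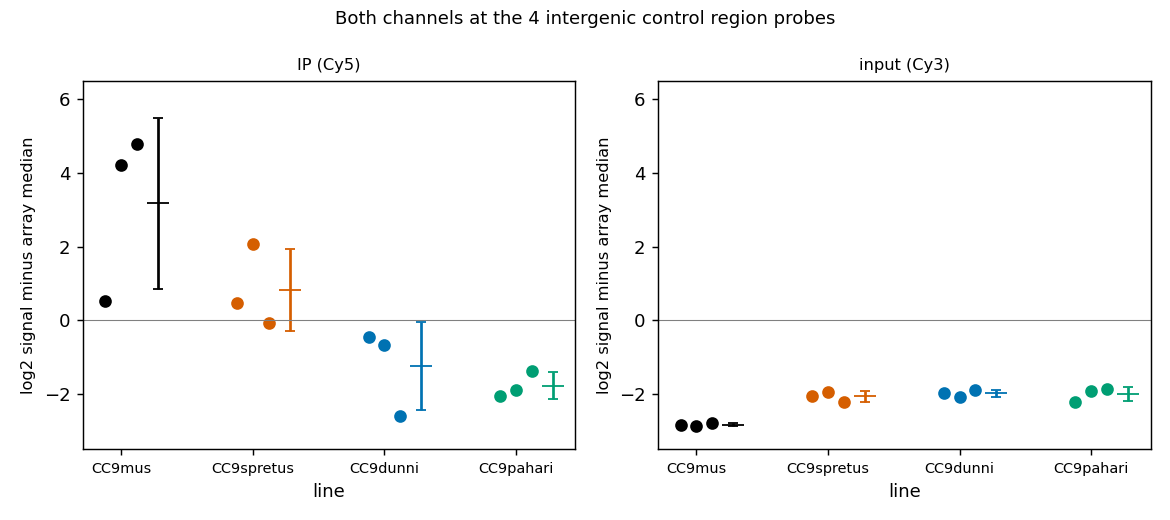
Log2 IP signal (left) and log2 input signal (right) of the 4 intergenic control region probes, each as the difference from the array's median probe, with 1 point per array and the mean ± SD of 3 arrays per line. The IP means fall from 3.18 in CC9mus to -1.77 in CC9pahari, and the input mean is -2.83 in CC9mus against -2.01 over the other 9 arrays.

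Dlk1 encodes a transmembrane protein of the Notch ligand family that restrains differentiation of several cell types. Its first locus averaged 0.38, 1.49 and 3.25 on the CC9mus replicates, and 1.71 ± 1.45 as a line mean, against 0.62 ± 0.07 in CC9spretus, 0.46 ± 0.14 in CC9dunni and 0.37 ± 0.04 in CC9pahari. CC9mus replicate 1 lay among the other arrays there. Its probe with the lowest mean, A_68_P28732710 (chr12:110691897-110691941), had ratios of -0.16, 0.43 and 3.67 in CC9mus against -0.63 to -0.14 on the other 9 arrays.

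The second Dlk1 locus, 5.7 kb further on, was enriched in every line. Its 4 probes averaged 1.23, 3.50 and 4.42 in CC9mus, 2.67, 2.41 and 2.69 in CC9spretus, 2.99, 2.97 and 2.42 in CC9dunni, and 1.87, 1.79 and 2.45 in CC9pahari. CC9mus thus held both the lowest and the highest arrays, while as percentiles all 12 arrays lay between 93.5 and 96.9. The probe with the highest mean in the Dlk1 region, A_68_P28732763 (chr12:110698258-110698305), had line means of 3.74 ± 2.10 in CC9mus, 3.73 ± 0.14 in CC9spretus, 3.70 ± 0.10 in CC9dunni and 2.93 ± 0.13 in CC9pahari. A_68_P28732760 (chr12:110697905-110697949) had the smallest CC9mus difference of the domain, at 0.14.

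The locus before Dio3 averaged 0.49, 2.13 and 3.36 on the CC9mus replicates, and the other 9 arrays ran from 0.06 to 0.78, so CC9mus replicate 1 again lay inside their range. The line means were 1.99 ± 1.44 in CC9mus, 0.46 ± 0.37 in CC9spretus, 0.60 ± 0.09 in CC9dunni and 0.23 ± 0.18 in CC9pahari (SD, n = 3). Its probe with the highest mean, A_68_P28736909 (chr12:111426212-111426256), had 2.36 ± 1.34, 1.40 ± 0.41, 1.25 ± 0.08 and 1.41 ± 0.38 in the same order of lines. Its probe with the lowest mean, A_68_P28736920 (chr12:111427436-111427491), had 1.90 ± 1.71, -0.07 ± 0.70, -0.45 ± 0.98 and -0.70 ± 0.74. The IP of A_68_P28736920 was well above background on 9 of 12 arrays. The IP signal was not well above background on any of the 3 arrays for 1 of the 21 probes in CC9spretus, 2 in CC9dunni and 2 in CC9pahari, so their ratios there are not measured levels. For 1 of the 2 in CC9dunni the input was not well above background on those arrays either.

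Dio3 encodes the selenoenzyme deiodinase 3, which inactivates thyroid hormone. Its 15 probes averaged 0.31, 1.65 and 3.77 on the CC9mus replicates, where the 0.31 is over 14 probes, as A_68_P28737550 was missing on replicate 1. All 15 averaged between -0.33 and 0.23 on the other 9 arrays, so all 3 CC9mus arrays lay above all others. The line means were 1.91 ± 1.74 in CC9mus, 0.01 ± 0.19 in CC9spretus, -0.09 ± 0.16 in CC9dunni and -0.30 ± 0.02 in CC9pahari. The gap held as a percentile, at 69.1 to 92.3 on the CC9mus arrays and 37.0 to 49.1 on the others. The probe with the highest mean, A_68_P28737554 (chr12:111517996-111518042), had 2.79 ± 2.37 in CC9mus and 0.97 ± 0.97, 0.73 ± 0.56 and 0.39 ± 0.17 in CC9spretus, CC9dunni and CC9pahari. The probe with the lowest, A_68_P28737538 (chr12:111515954-111516003), had 1.19 ± 1.88 in CC9mus and -1.07 ± 0.65, -1.12 ± 0.48 and -0.99 ± 0.31 in the others. Its IP was well above background on 8 of 12 arrays, the dim spots lying in CC9dunni and CC9pahari.

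**Figure D3:**
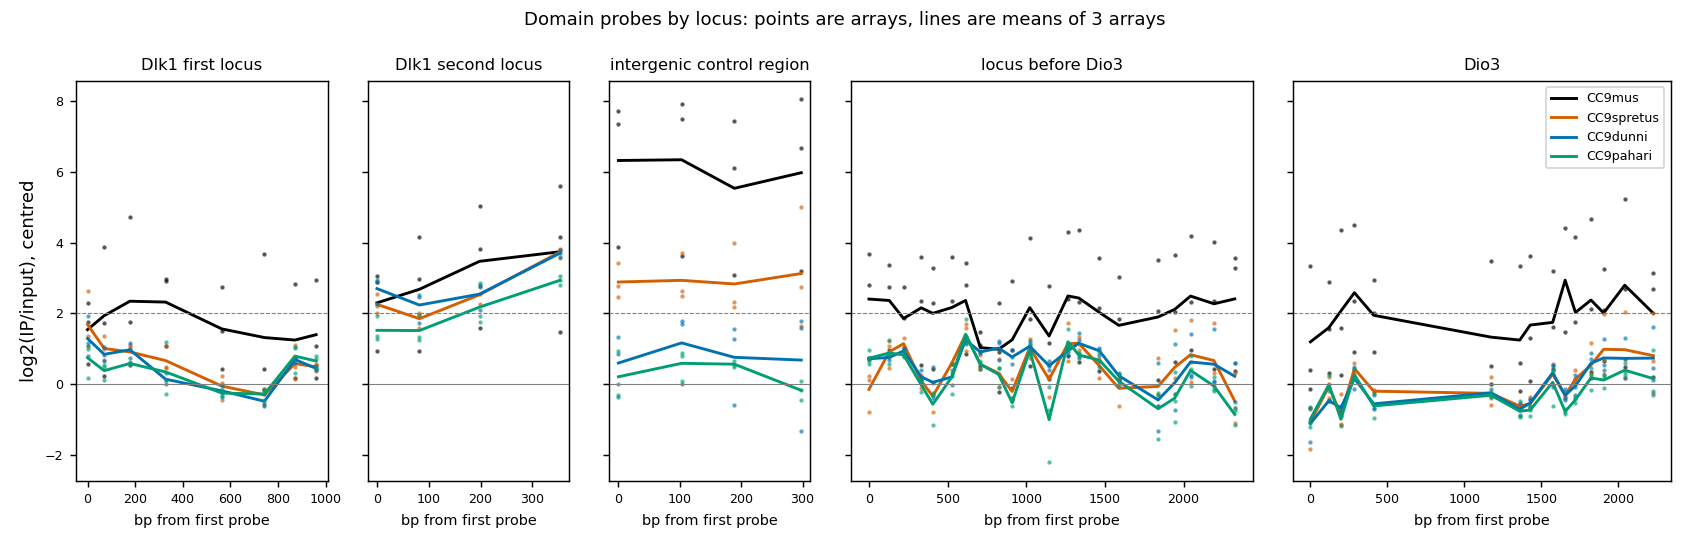
Centred log2(IP/input) of the 52 probes by locus, against the distance in bp from the first probe of the locus. Points are single arrays, lines join the means of 3 arrays per line, and the dashed line marks the threshold of 2. CC9mus and CC9spretus separate from the other lines over the control region, the line means run from 2.03 in CC9pahari to 3.05 in CC9mus over the second Dlk1 locus, and CC9mus alone lies above 1 over Dio3.

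Domain probes that had a mean ratio above 2 were counted in each line. In CC9mus 31 of 52 probes did, where 9.39% of all probes of the array did. They were 2 of 8 at the first Dlk1 locus, 4 of 4 at the second, 4 of 4 at the control region, 13 of 21 at the locus before Dio3 and 8 of 15 at Dio3, A_68_P28737550 among them with a mean over 2 arrays. In CC9spretus 7 of 52 did (5.16% of all probes), 3 at the second Dlk1 locus and 4 at the control region. The 4 probes of CC9dunni (7.69% of the domain, 5.32% of all) and the 2 of CC9pahari (3.85% of the domain, 4.71% of all) all lay at the second Dlk1 locus. In both lines the domain share is near that of the array.

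These counts depended on single arrays and on the processing. Required on each of the 3 arrays, the threshold was passed by 4 probes in CC9mus (0.689% of all probes), 5 in CC9spretus (3.86%), 3 in CC9dunni (4.06%) and 1 in CC9pahari (3.57%). Without CC9mus replicate 3 the CC9mus count was 6 (4.28% of all), and without replicate 1 it was 44 (17.7% of all). With a normexp background correction the counts were 6 in CC9mus (2.32% of all), 1 in CC9spretus (2.77%), 0 in CC9dunni (2.13%) and 0 in CC9pahari (2.17%), and with arrays scaled to equal spread the CC9mus count was 6 (2.97%). The count of probes with a mean below -2 was 0 of 52 in each line, where 3.25%, 1.08%, 0.586% and 0.124% of all probes were in CC9mus, CC9spretus, CC9dunni and CC9pahari.

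Set against the mean of the other 3 lines, CC9mus was higher by 4.70 at the control region, 1.22 at the first Dlk1 locus, 0.57 at the second, 1.56 at the locus before Dio3 and 2.04 at Dio3, on the log2 scale. Among the 13463 loci of the array with at least 3 probes, where the median difference was -0.12, these ranked first, 864th, 2386th, 396th and 80th from the top. The first rank is what the domain was chosen for and carries no weight of its own. At single probes, all 3 CC9mus arrays lay above all 9 others for 10 of the 51 with a value on every array, where 3.78% of the 87808 such probes of the array did, and 7 of the 10 lay at Dio3, 1 at the control region, 1 at the first Dlk1 locus and 1 at the locus before Dio3. In the opposite direction, 0 of the 51 lay below all others (3.36% of those probes). Within the later scan period, 3 CC9mus arrays against 3 others, the control region differed by 5.27 and Dio3 by 1.90. The scan day of CC9mus and the line cannot be told apart.

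Replicates of CC9mus set the size of these differences. Leaving out 1 array at a time, the difference ran from 3.88 to 5.99 at the control region, from 0.45 to 1.89 at the first Dlk1 locus, from -0.11 to 1.48 at the second, from 0.88 to 2.32 at the locus before Dio3 and from 1.11 to 2.83 at Dio3. The lowest value at each Dlk1 locus, which at the second turned the sign, and the value of 1.11 at Dio3 were without CC9mus replicate 3, and the value of 2.32 at the locus before Dio3 without CC9mus replicate 1. With normexp the difference was 3.03 at the control region, 1.00 and 0.67 at the Dlk1 loci, 0.91 at the locus before Dio3 and 1.35 at Dio3. After the arrays were scaled to equal spread it was 3.51, 0.52, -0.49, 0.79 and 1.25 at the same places, in the scaled log2 units, so CC9mus was lower at the second Dlk1 locus.

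The divergent lines were compared without CC9mus, in limma's moderated test over all probes on their 9 arrays with Benjamini-Hochberg adjustment. The domain median difference was 0.06 for CC9spretus minus CC9dunni, 0.32 for CC9spretus minus CC9pahari and 0.30 for CC9dunni minus CC9pahari, beside medians of 0.01, -0.06 and -0.07 over the array. In these 3 comparisons 0 of 52 probes passed an adjusted p of 0.05, where 0.00451%, 0% and 0.062% of all probes did. Without adjustment 7 probes had a p under 0.05 in CC9spretus minus CC9dunni, 4 of them higher in CC9spretus, where 6.56% of all probes did. There were 11 such probes in CC9spretus minus CC9pahari, 10 of them higher in CC9spretus (5.58% of all), and 8 in CC9dunni minus CC9pahari, all higher in CC9dunni (6.51% of all). The 8 include A_68_P28736925, whose IP signal was well above background on the CC9mus arrays only. With probes of dim IP left out, 50 remained. The counts were then 6 for CC9spretus minus CC9dunni and 10 for CC9spretus minus CC9pahari.

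In both comparisons with CC9spretus, the widest gaps of the domain lay at the control region. At its 4 probes CC9spretus was above CC9dunni by 1.77 to 2.45 and above CC9pahari by 2.27 to 3.30. The upper ends are those of A_68_P28733171, whose input was well above background on 8 of 12 arrays and whose IP was on 9, the dim spots lying in CC9dunni and CC9pahari. Over the other 3 probes, of which A_68_P28733168 had 1 dim IP spot in CC9pahari, the differences were 1.77 to 2.29 and 2.27 to 2.68. Leaving out CC9dunni replicate 3 or CC9spretus replicate 2 lowered the difference from CC9dunni at A_68_P28733171 from 2.45 to 1.45 or 1.51. With normexp all 4 probes shrank, to 0.85 to 0.93 from CC9dunni and 0.90 to 1.06 from CC9pahari. For A_68_P28733168, which had the smallest p of the domain in both, the difference from CC9dunni was 2.29 ± 0.48 (SE, 95% interval 1.20 to 3.38, limma adjusted p = 0.441) and that from CC9pahari 2.68 ± 0.48 (1.59 to 3.77, limma adjusted p = 0.277). CC9dunni minus CC9pahari was 0.19 to 0.86 over the 4 probes, with limma adjusted p from 0.842 to 0.954, and its sign was not stable, since it turned negative at 2 probes with the slide as a random block (-0.15 and -0.064). The 95% intervals of that difference lay between -1.17 and 1.73 at the first 3 probes and ran from -1.27 to 2.98 at A_68_P28733171. Within the earlier scan period the difference was 0.86 to 1.99, with limma adjusted p from 0.217 to 0.520. The CC9dunni arrays of that period lay on a slide of their own, as did those of CC9pahari, so line and slide cannot be told apart there.

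By locus, the control region ranked 4th of 13463 for CC9spretus minus CC9dunni, at 2.15, 9th for CC9spretus minus CC9pahari, at 2.65, and 704th for CC9dunni minus CC9pahari, at 0.50. The array ranges of CC9spretus and CC9dunni did not overlap at 3 of the 4 probes, CC9spretus being higher at 8 of 52 over the domain (5.54% of all probes), and those of CC9spretus and CC9pahari did not overlap at 4 of 4, with 15 of 52 over the domain (4.61% of all). In the opposite direction CC9dunni lay above CC9spretus at 4 of 52 probes (6.26% of all), all at the locus before Dio3, and CC9pahari above CC9spretus at 1 (6.28% of all).

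**Figure D4:**
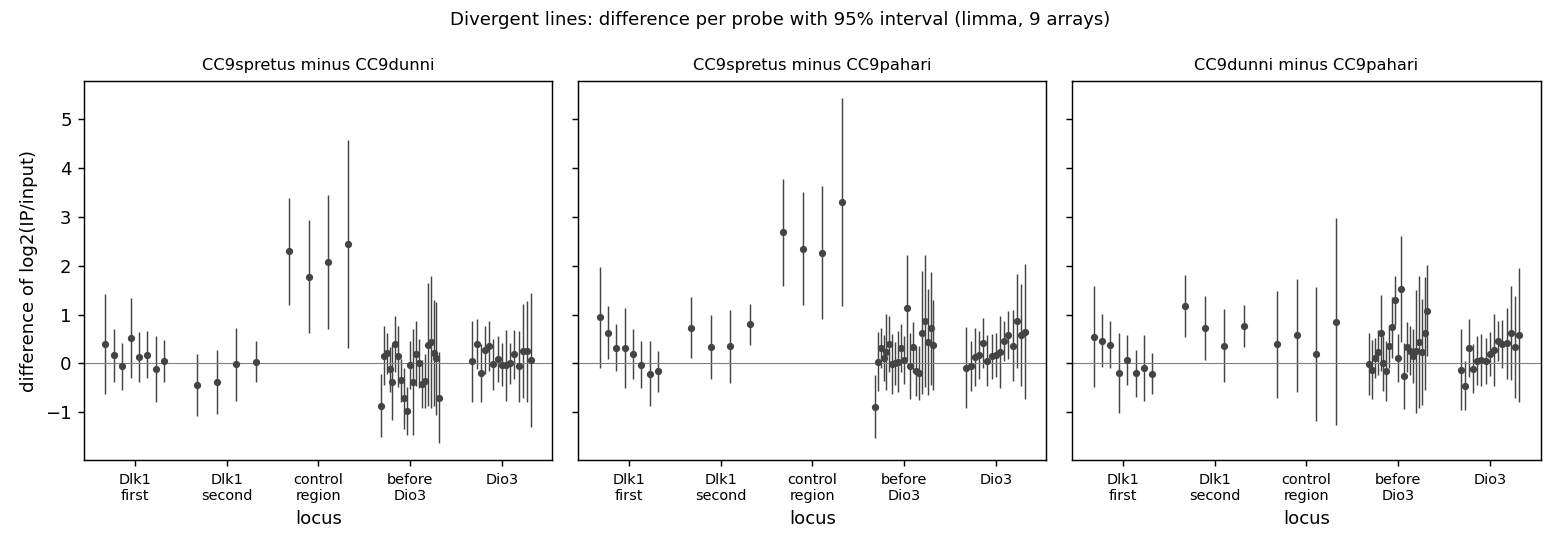
Difference in log2(IP/input) for each of the 52 probes in the 3 comparisons among CC9spretus, CC9dunni and CC9pahari, grouped by locus, with 95% intervals from limma on 9 arrays. The 4 control region probes lie between 1.77 and 3.30 in both comparisons with CC9spretus and between 0.19 and 0.86 for CC9dunni minus CC9pahari, and 0 probes passed an adjusted p of 0.05.

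The call at the control region depended on how shared slides were treated. The fit with line alone treats all 9 arrays as independent, although replicates 1 and 2 shared a slide in CC9dunni and in CC9pahari. CC9spretus replicate 3 and CC9dunni replicate 3 also lay on the same slide, the only one shared between lines. There the 4 probes differed by 2.61 to 3.15 in favour of CC9spretus. With the slide as a random block (consensus correlation 0.834), all 4 probes passed for CC9spretus minus CC9dunni, with limma adjusted p from 0.0149 to 0.0399, together with A_68_P28736912 at the locus before Dio3, which was lower in CC9spretus (-0.95, limma adjusted p = 0.0386). That fit called 1495 probes (1.68%) over the array, where the fit without the block called 4. At the 4 control region probes it gave differences of 2.40 to 2.93, nearer to those on the shared slide. For CC9spretus minus CC9pahari the slide block left 0 of 52 probes called, with a lowest limma adjusted p of 0.685.

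At the other loci the differences of CC9spretus from both lines were smaller than at the control region, while that between CC9dunni and CC9pahari was larger at the second Dlk1 locus than there. At the second Dlk1 locus CC9dunni was above CC9pahari by 0.76, and the arrays did not overlap at 2 of its 4 probes. The gap lay in the earlier scan period, at 2.98 against 1.83, while the single arrays of the later period were at 2.42 and 2.45. In the earlier period the arrays of each line lay on a slide of their own, so line and slide cannot be told apart. A_68_P28736912 (chr12:111426508-111426561), at the locus before Dio3, had the smallest p of the domain for CC9dunni minus CC9pahari. Its ratios were 0.76, 0.96 and 0.57 in CC9dunni, -0.49, -0.63 and -0.46 in CC9pahari, and 0.14, -0.39 and -0.38 in CC9spretus, so the CC9dunni arrays lay above the 6 others. CC9dunni exceeded CC9pahari by 1.29 ± 0.22 (SE, limma adjusted p = 0.132), and the difference passed once scan period was added as a term (limma adjusted p = 0.0425), a fit that called 0.414% of all probes. Over the other alternatives tried, which each left it above 0.05, the adjusted p ran from 0.0855 to 1.00. CC9dunni lay above CC9pahari without overlap at 13 of 52 probes (7.63% of all), and CC9pahari above CC9dunni at 1 (9.26% of all). The 13 include A_68_P28736925, whose IP signal was not well above background on any array of either line. At Dio3 the 3 line differences were 0.11, 0.31 and 0.21 for CC9spretus minus CC9dunni, CC9spretus minus CC9pahari and CC9dunni minus CC9pahari.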

How the data were processed

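Agilent 2-colour mouse CpG island arrays of 12 samples were used, 3 per line as labelled. The authors scanned the arrays and deposited the processed signal intensity of both channels (Agilent Feature Extraction, version 11.0.1.1 in the file headers and 11.0.1.0 in the labels), already background-subtracted and dye-normalised. The deposited log10 ratio of Cy5 over Cy3 served as an alternative, and the deposited series table of log10 ratios equalled it (largest difference 0). Both dye assignments were as labelled and no dyes were swapped, so a dye effect cannot be told apart from enrichment. Here log2(Cy5/Cy3) was taken for 88737 non-control probes, spots called outliers by the scanner software were dropped, and the array median was subtracted (-0.36 to -0.02 before centring).

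Lines were compared with limma 3.58.1 in R 4.3.3 on 9 arrays, with line as the single term and Benjamini-Hochberg adjustment over all probes. The code was first run on simulated data with independent errors and no slide or scan period effect. That run therefore cannot show that the fit suits arrays that share slides. Non-overlap between lines, and its share of the array, was counted over probes with a value on every array compared. Named probes were those with the highest and lowest mean in each region, the largest and smallest CC9mus difference, and the smallest p of each comparison. Other probes and loci given were chosen after their values were seen. The members, probe rule and lists were chosen with earlier results of these data known. The tests printed are unpaired, and a replicate block was an alternative. Among the 9 arrays, all 9 same-number pairs had deviations correlated above 0.1 (0.119 to 0.541), although the labels name no shared day. Pairs with different numbers ran from -0.479 to 0.370, and 4 of the 9 arrays were nearest to an array of their own number. Arrays of the same number also shared a scan period, so pairing by number cannot be fully told apart from scan period. Whether replicate numbers pair the arrays is therefore not settled. The number of arrays limits the precision, and the genome reference was GRCm38, used for promoter sequences only.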

Additional observations from a re-analysis of the deposited data

How the results depend on the processing

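The direction of the CC9mus difference held at the control region, the locus before Dio3, Dio3 and both Dlk1 loci as 1 region under every alternative tried (no centring, normexp, the deposited log ratio, equal spread, dim probes left out, the median over probes, the later scan period and leaving out arrays). Its size moved beyond the replicate spread at the control region with normexp (3.03) and, with arrays scaled to equal spread, over both Dlk1 loci together (0.18) and at the locus before Dio3 (0.79). Taken alone, a split made after the data were seen, the second Dlk1 locus turned to -0.49 with equal spread. Leaving out 1 array gave 3.88 to 5.99 at the control region, 0.26 to 1.75 over Dlk1 (0.45 to 1.89 at its first locus and -0.11 to 1.48 at its second, negative without CC9mus replicate 3), 0.88 to 2.32 at the locus before Dio3 and 1.11 to 2.83 at Dio3. Of these, 0.45 and 1.11, both without CC9mus replicate 3, were also moves beyond the replicate spread. So were 1.48 and 2.32, both without CC9mus replicate 1. Counts of probes above 2 were 6 in CC9mus, 1 in CC9spretus, 0 in CC9dunni and 0 in CC9pahari with normexp, 6 in CC9mus with equal spread, and 4 in CC9mus and 1 in CC9pahari with the threshold on every array. Leaving out 1 array, they were 6 to 44 in CC9mus (6 without replicate 3) and 1 to 2 in CC9pahari (1 without replicate 3). The cause of these shifts was not tested.

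For the divergent lines, the slide as a random block gave 5 called domain probes for CC9spretus minus CC9dunni, and the scan period block gave 1 for CC9dunni minus CC9pahari. Every other alternative gave 0, leaving out arrays included. The fit with the replicate block called 0 domain probes in each comparison and changed no call. With normexp the control region differences of CC9spretus were 0.85 to 0.93 from CC9dunni and 0.90 to 1.06 from CC9pahari. Within the earlier scan period, an alternative chosen after the data were seen, CC9spretus exceeded CC9dunni by 1.35 to 2.18 and CC9pahari by 2.58 to 4.17, and CC9dunni exceeded CC9pahari by 0.86 to 1.99. No slide was shared between lines in that period, so line and slide cannot be told apart there. CC9dunni minus CC9pahari turned negative at A_68_P28733168 (-0.15) and A_68_P28733170 (-0.064) with the slide block, and, leaving out 1 array, ran from -0.21 (without CC9dunni replicate 2) to 0.86 (without CC9dunni replicate 3) at A_68_P28733170, with -0.072 without CC9dunni replicate 1.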

Other observations

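Of 13462 other loci of at least 3 probes, the 3 whose 12 array means followed the intergenic control region most closely lay at chr6:119493462-119494616, chr2:163264200-163264636 and chr11:22872000-22873052 (mm9), each with a Pearson r of 0.95 over 12 arrays. The points share each array's spread and scan, and after the arrays were scaled to equal spread other loci came first, the nearest at chr8:127472125-127473661 with r = 0.93. The first of the 3 had line means of 0.97 ± 0.65 in CC9mus, 0.07 ± 0.22 in CC9spretus, -0.45 ± 0.15 in CC9dunni and -0.32 ± 0.08 in CC9pahari. The second had 0.61 ± 0.41, -0.0054 ± 0.06, -0.25 ± 0.18 and -0.26 ± 0.14 in the same order. The chromosome 11 locus, of 9 probes, had line means of 4.65 ± 2.32 in CC9mus, 3.30 ± 0.92 in CC9spretus, 0.95 ± 0.95 in CC9dunni and -0.45 ± 0.45 in CC9pahari (SD, n = 3). Within the domain, the r to the control region was 0.65 to 0.84 for the other 4 loci, and -0.13 to 0.53 at equal spread.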
